A study of Mus musculus with 68 samples.

Results

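The Hox and Tbx genes are transcription factors whose expression marks where along the body a cell arose. The set described here held every row whose Ensembl identifier maps to a protein-coding gene named Hoxa, Hoxb, Hoxc or Hoxd with a number, or Tbx with a number. Of 52 such genes in the annotation, 41 were listed, the same 41 in each set of tables, among 13197 listed genes for the founders and 12803 for the crosses, and 40 of them are described. The listed genes were 34 of 39 Hox genes (11 in the Hoxa cluster, 8 in Hoxb, 9 in Hoxc and 6 in Hoxd) and 7 of 13 Tbx genes. Hoxb1, Hoxb13, Hoxd1, Hoxd3, Hoxd4, Tbx6, Tbx10, Tbx19, Tbx20, Tbx21 and Tbx22 were not listed.

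RNA was sequenced from mouse embryonic fibroblasts (MEFs), primary cells grown out of dissociated embryos, in 68 libraries. The founder strains of the Collaborative Cross, a panel bred to mix the genomes of laboratory mouse strains, gave 40 libraries, namely A/J (A), C57BL/6J (B6), 129S1Sv/ImJ (129), NOD/ShiLtJ (NOD), NZO/H1LtJ (NZO), CAST/EiJ (CAST), PWK/PhJ (PWK) and WSB/EiJ (WSB). F1 crosses of B6 mothers with 129, NOD, NZO, CAST and WSB fathers (x129, xNOD, xNZO, xCAST and xWSB) gave 28. Each genotype was grown for 4 h with vehicle alone (DMSO, the control) or with 2 µg/ml tunicamycin (TM), a drug that blocks N-linked glycosylation and so causes endoplasmic reticulum (ER) stress, with 2 or 3 libraries in each group. The MEFs of a genotype came from several female embryos of a single litter, so that strain, litter and culture cannot be told apart. Replicate libraries of a group share that source, and p-values measure only the spread between them. The authors dropped libraries that did not cluster with their condition, which is why some groups hold 2.

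Hox genes lie in clusters in which gene order follows the order of expression along the body, with low paralog numbers used towards the head and high numbers towards the tail and the ends of the limbs. Tbx genes encode T-box factors, among which Tbx5 is known for the forelimb, Tbx4 for the hindlimb and Tbx15 for skin and skeleton. Fibroblasts keep part of this positional code in culture. Values below are levels in CPM (reads relative to the TMM-scaled total of a library). Gene length was not divided out, so levels of different genes are compared only per kilobase of exon.

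Reads on genes, recovered from the values of 38 founder libraries, ranged from 7091923 to 21530282 (median 11927033), and from 6442976 to 29528457 (median 13025117) in the F1 libraries. The ER stress check genes rose in both sets (5 of 5), with Hspa5, an ER chaperone, 7.13-fold higher in the founders and 7.45-fold higher in the F1 crosses. All 11 fibroblast markers were listed, with a summed control level of 21206 to 55937 in the founders and 21024 to 35018 in the crosses. Summed chondrocyte markers (4 of 5 listed) ranged from 59.1 to 682 and from 14.3 to 680, myeloid markers (14 and 8 of 15 listed) from 8.68 to 78.2 and from 7.23 to 34.0. Epithelial (5 and 4 of 7), endothelial (5 and 6 of 6), neural (7 and 7 of 9) and kidney and gonad markers (8 and 7 of 8) were also present, and of 7 skeletal muscle markers only Des was listed. In bulk libraries, fewer cells of a type and less RNA per cell cannot be told apart.

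All 40 members described passed the filter on low values in each set (0.5 or more in 2 or more libraries). In the control libraries, 30 of 40 were at or above that level in every founder library and 27 of 40 in every F1 library. Hoxb9, a thoracic patterning gene, was the most abundant per kilobase, with a mean of 15.6 in the founders and 20.4 in the crosses. Tbx15 was second in both sets (12.6 and 10.0). In the founders Hoxb6 (6.30), Hoxc8 (5.63) and Hoxa5 (5.24) followed, and Hoxd12 was the lowest (0.155, and 0.153 in the crosses).

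Hoxd13 and Hoxa13, which pattern the hand and foot, had closely similar profiles across the strains, and Hoxa5 and Hoxb8, trunk patterning genes, were among those that fell with TM in the founders. Their proximal promoters, the 250 bases before each RefSeq start (GRCm38.p6, read along the gene's strand), are shown for that reason. They lie at chr2:74667975-74668224 (plus strand) for Hoxd13, chr6:52260881-52261130 (minus) for Hoxa13, chr6:52204588-52204837 (minus) for Hoxa5 and chr11:96281655-96281904 (plus) for Hoxb8. Capitals mark CCAAT (or its reverse complement ATTGG), the box bound by NF-Y, and TATAAA (or TTTATA), the TATA box, both searched on either strand.
Hoxd13: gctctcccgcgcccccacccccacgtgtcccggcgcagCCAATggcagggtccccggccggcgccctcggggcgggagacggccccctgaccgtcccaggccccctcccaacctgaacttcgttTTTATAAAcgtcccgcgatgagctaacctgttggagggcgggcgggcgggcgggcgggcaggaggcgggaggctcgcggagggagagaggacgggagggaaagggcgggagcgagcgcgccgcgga
Hoxa13: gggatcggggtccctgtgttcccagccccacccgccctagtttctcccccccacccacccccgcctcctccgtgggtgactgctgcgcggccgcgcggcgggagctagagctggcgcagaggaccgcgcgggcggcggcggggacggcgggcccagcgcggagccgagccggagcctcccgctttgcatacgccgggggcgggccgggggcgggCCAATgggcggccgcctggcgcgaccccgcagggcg
Hoxa5: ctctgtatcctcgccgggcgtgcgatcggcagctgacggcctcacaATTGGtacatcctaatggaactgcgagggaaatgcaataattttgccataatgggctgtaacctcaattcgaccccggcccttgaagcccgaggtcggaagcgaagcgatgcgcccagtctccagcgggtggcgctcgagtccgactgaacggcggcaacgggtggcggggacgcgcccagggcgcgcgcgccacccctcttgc
Hoxb8: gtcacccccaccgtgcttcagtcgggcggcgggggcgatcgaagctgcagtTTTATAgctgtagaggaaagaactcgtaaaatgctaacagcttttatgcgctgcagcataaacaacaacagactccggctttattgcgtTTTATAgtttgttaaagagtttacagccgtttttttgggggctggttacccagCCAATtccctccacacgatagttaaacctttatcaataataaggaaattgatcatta
In Hoxd13 the TATAAA match overlaps its own reverse complement. RefSeq windows were found for 21 of 40 members. CCAAT was present in 11 of these 21 (52.4%) and in 33.8% of all 32536 windows of the same length, and TATAAA in 4 (19.0%) against 12.3%. TGATTNAT, a Hox-Pbx site, was present in 2 members (9.52%) against 2.83% of all windows. Of letters read by ER stress factors, TGATGNAA (ATF4 with C/EBP) was in 0 members against 3.40% and ACGTGG (XBP1 core) in 2 against 6.97%. Members were counted by gene and the background by window, and Hoxa10, Hoxd11 and Tbx1 each had a second window. The shares of members and of windows are therefore not strictly alike. A match is a run of letters only. The median GC content was 58.2% in the members' windows and 52.4% in all.

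The first comparison asked whether basal levels differed between founder strains. Of 40 members, 31 had a strain effect in the 18 control libraries (limma moderated F test, adjusted p below 0.01), while 35.8% of all genes did. In 29 members the highest and lowest strain also lay at least 2-fold apart, against 26.6% of all genes. The median range between strains on the log2 scale was 1.57 for the members and 0.82 over all genes. The widest ranges were those of Hoxd13 (6.11), Tbx4 (3.85), Hoxa13 (3.66), Hoxd12 (3.47), Hoxc13 (2.81) and Hoxc12 (2.75). The 9 without a called effect were Tbx1, Tbx5, Tbx18, Hoxa4, Hoxa6, Hoxb3, Hoxc4, Hoxd8 and Hoxd9, with adjusted p-values up to 0.392 for Hoxd9.

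**Figure D1:**
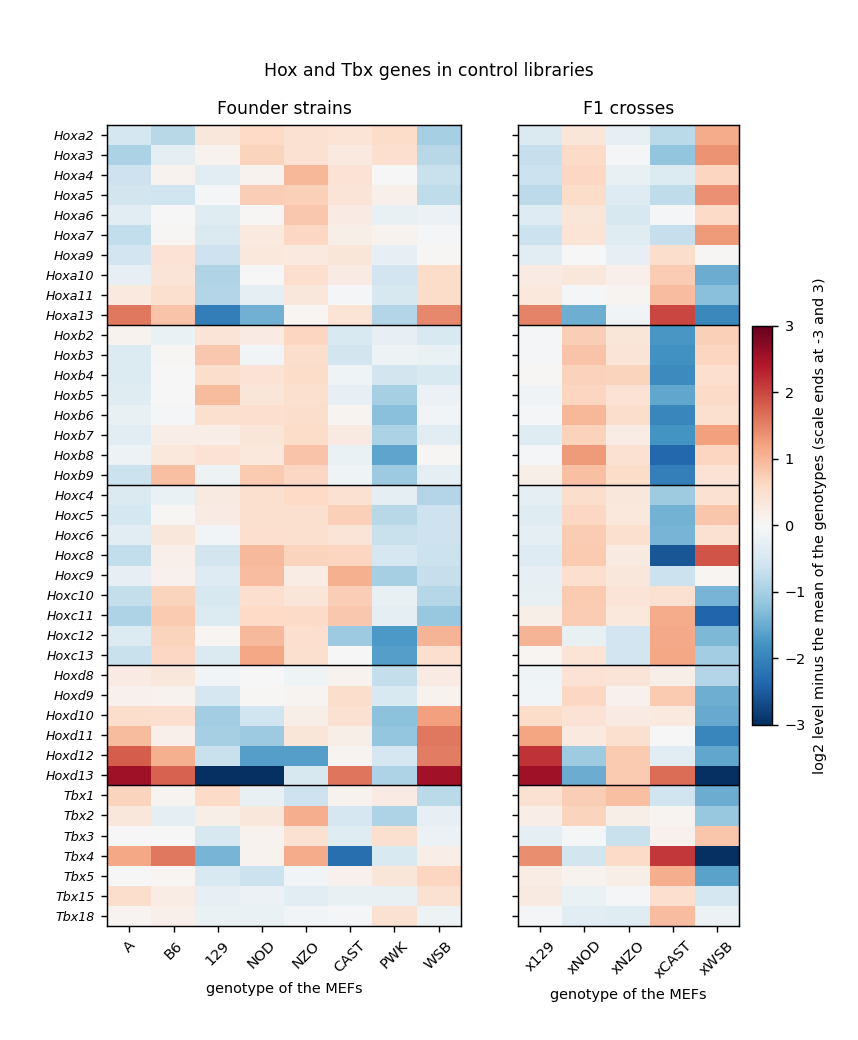
Control levels of the 40 members by genotype, as the mean log2(level + 0.1) of a genotype minus the mean over the genotypes of its set, in the 8 founder strains and in the 5 crosses. Rows follow cluster order, and neighbouring rows often share colours. Hoxd10 to Hoxd13 are high in A and WSB, and Hoxb4 to Hoxb9 are lowest in PWK among the founders. The Hoxb genes are lowest in xCAST among the crosses, and Hoxd13 is low in 129, NOD and xWSB.

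Hoxd13 (chr2:74668310-74671599, plus strand, the last gene of its cluster) spanned the widest range. Its control levels were 18.3, 17.5 and 19.8 in A, 18.7 and 17.9 in WSB, 11.7 and 10.0 in B6, and 10.6 and 8.81 in CAST. They were 2.41 and 2.01 in NZO, 1.77, 1.69 and 1.29 in PWK, 0.631 and 0 in 129, and 0.382 and 0.0631 in NOD. The levels fell into high (A, WSB), middle (B6, CAST), low (NZO, PWK) and near-absent (129, NOD) strains without overlap, while A and WSB overlapped each other, as did B6 with CAST, and 129 with NOD. The A to 129 difference was 6.11 on the log2(level + 0.1) scale, or 68.9-fold (limma F test over strains, adjusted p = 1.17e-06). The 129 libraries held 11 and 0 reads, and the NOD libraries 8 and 1, which limits how well the bottom of the range is known. The difference between the highest and lowest strain was 7.54 without 129 control replicate 2, 6.84 without NOD control replicate 1 and 4.01 with a pseudocount of 1 in place of 0.1.

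The genes next to Hoxd13 followed in part. Hoxd12, also a distal limb gene, averaged 1.04 in A and was at 0 in both NOD and both NZO libraries, so that A was at least 12.8-fold higher than NOD and at least 10.3-fold higher than NZO (3 reads over the group as the floor). Hoxd11, of the forearm and shank, was 7.45 and 6.47 in WSB and 0.710, 1.08 and 1.12 in PWK, a 6.70-fold range (limma adjusted p = 1.04e-05). Hoxd10, of the limb and lumbar region, was 6.95 and 6.32 in WSB and 0.976, 1.43 and 1.00 in PWK, 5.52-fold (limma adjusted p = 1.78e-05). Hoxd8 and Hoxd9, nearer the other end of the cluster, were not called. Hoxa13 (chr6:52257694-52260880, minus strand), whose promoter stands above with that of Hoxd13, was low in every strain. It measured 0.628, 1.28 and 1.93 in A, 0.745 and 1.47 in WSB, and 1.06 and 0.405 in B6, and it was at 0 in both 129 libraries, which puts A at least 12.6-fold higher.

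Hoxb9 (chr11:96271457-96276595) ordered the strains differently. It was 71.7 and 70.9 in B6, 63.2 and 68.7 in NOD, and 59.9 and 58.6 in NZO. It was 35.4 and 33.5 in 129, 33.8 and 36.9 in CAST, 30.6 and 31.9 in WSB, 20.1, 26.5 and 27.8 in A, and 17.5, 19.9 and 16.5 in PWK. All libraries of B6, NOD and NZO lay above all others and PWK lay below all others, 3.97-fold from top to bottom (limma adjusted p = 8.29e-08). Only 129 and CAST overlapped. Hoxb6, a trunk patterning gene of the same cluster, was 17.9 and 17.2 in NZO and 5.94, 4.71 and 4.59 in PWK, 3.42-fold (limma adjusted p = 2.61e-05).

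In the Hoxc cluster, Hoxc8 (chr15:102990607-102994111), which patterns thoracic segments, was highest in NOD (32.3 and 27.6). The next were NZO (26.1 and 21.99) and CAST (23.7 and 23.5), which overlapped, then B6 (16.6 and 16.7). A (8.53, 9.66 and 8.79), 129 (10.8 and 9.66), PWK (10.0, 11.1 and 10.9) and WSB (10.4 and 8.97) formed a low group whose ranges met, 3.30-fold below NOD at its lowest (limma adjusted p = 1.50e-07). Hoxc5, of the neck and upper trunk, was 14.5 and 15.5 in CAST and 4.70, 5.58 and 4.88 in PWK, 2.93-fold (limma adjusted p = 1.17e-06). Hoxc9, which patterns thoracic segments, was 13.9 and 9.64 in CAST and 3.02, 3.07 and 2.18 in PWK, 4.14-fold (limma adjusted p = 2.02e-05). Hoxc10, a lumbar and hindlimb gene, was 14.2 and 14.2 in CAST, 14.03 and 13.4 in B6, and 5.46 and 3.97 in WSB, 3.00-fold (limma adjusted p = 2.61e-05). Hoxc10 and Hoxc5 share 166 exonic bases, so reads there cannot be assigned to either alone.

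Hoxa5 and Hoxa3 were highest in NOD, where Hoxd13 was nearly absent. Hoxa5, which patterns the neck, upper trunk and lung, was 16.9 and 14.1 in NOD, 16.1 and 14.4 in NZO, 13.4 and 11.0 in CAST, and 10.6, 10.2 and 10.1 in PWK. It was 7.98 and 9.99 in 129, 5.39, 8.11 and 5.78 in A, 6.44 and 5.77 in B6, and 5.71 and 5.15 in WSB. NOD and NZO overlapped at the top, and A overlapped B6, WSB and 129 lower down, with 2.82-fold between the extremes (limma adjusted p = 2.88e-05). Hoxa3, a gene of the pharyngeal arches, was 10.9 and 13.4 in NOD, 12.3, 10.5 and 9.59 in PWK, and 2.87, 4.10 and 4.82 in A, 3.08-fold (limma adjusted p = 9.40e-05).

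Of the Tbx genes, 4 of 7 had a strain effect. Tbx4 (chr11:85886422-85916097) was 7.87 and 10.0 in B6, 5.30, 6.29 and 8.62 in A, and 6.90 and 6.04 in NZO, which overlapped. It was 3.10 and 3.68 in WSB, 2.63 and 3.72 in NOD, 2.22, 2.10 and 1.94 in PWK, 1.32 and 0.819 in 129, and 0.414 and 0.659 in CAST. CAST lay below every other strain, 14.4-fold under B6 (limma adjusted p = 3.16e-07). Tbx2 (chr11:85832551-85841948), a repressor of the limb and heart and the neighbour of Tbx4, was 17.5 and 15.8 in NZO and 3.90, 4.30 and 4.00 in PWK, 4.02-fold (limma adjusted p = 1.16e-04). Tbx15 was 65.1, 64.9 and 66.0 in A, 62.8 and 62.2 in WSB, and 53.9 and 52.1 in B6. The other strains held between 36.4 and 40.7, so that the top 3 strains stood apart in order without overlap, though only 1.78-fold separated the extremes (limma adjusted p = 4.30e-06). Tbx3, a limb and mammary gland gene, was 28.01 and 20.98 in NZO, 26.3, 24.6 and 23.4 in PWK, and 12.2 and 12.9 in 129, 1.96-fold (limma adjusted p = 3.33e-04). Tbx5 lay between 0.883 and 3.97 with no called effect (limma adjusted p = 0.119).

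**Figure D2:**
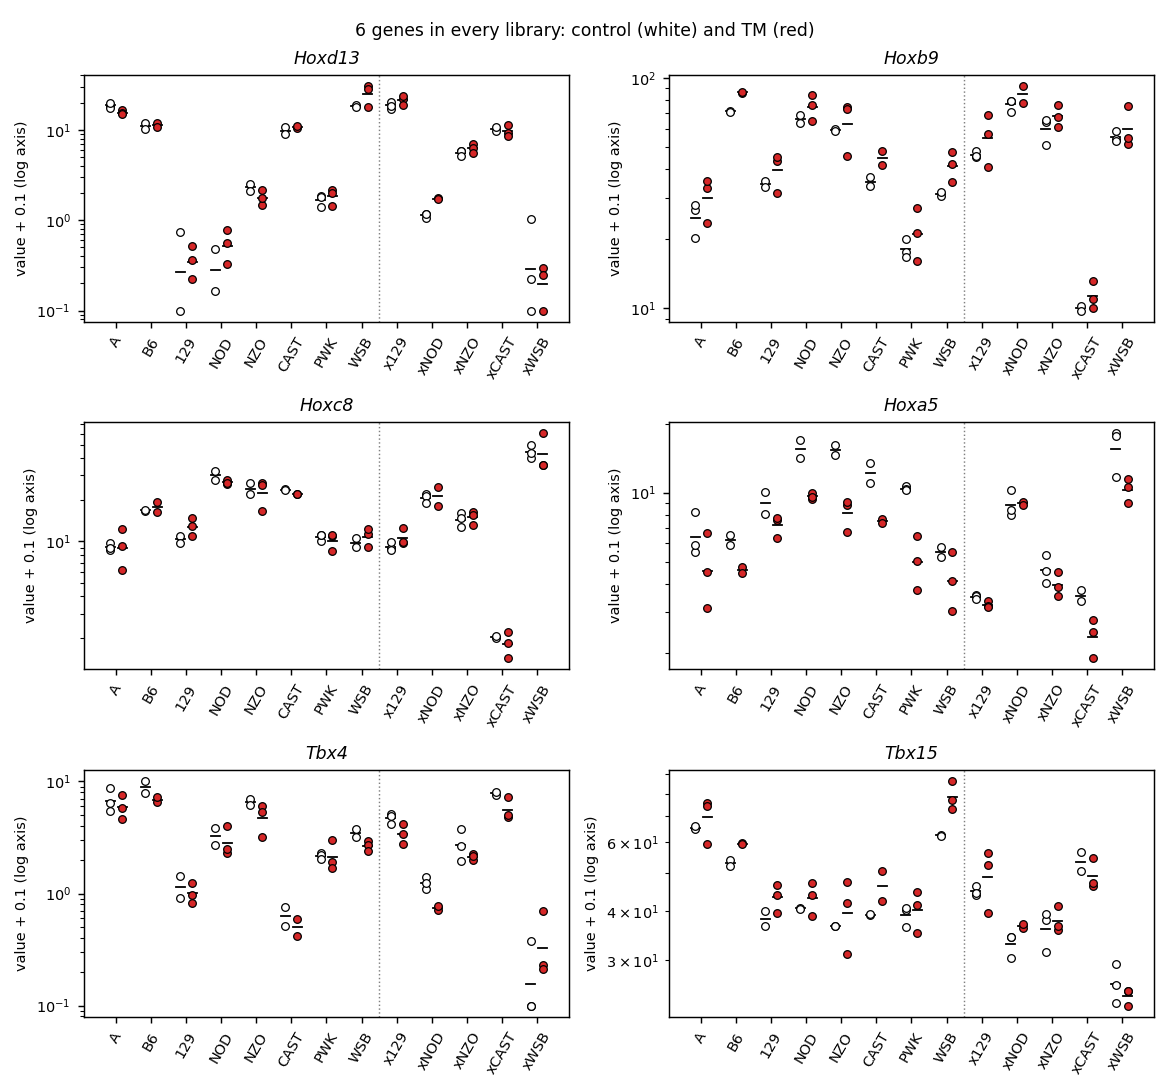
Levels of Hoxd13, Hoxb9, Hoxc8, Hoxa5, Tbx4 and Tbx15 in every library by genotype, on a log axis of level + 0.1 (white points control, red points TM, bars the group means). Hoxd13 and Tbx4 span orders of magnitude between genotypes, Tbx15 stays within a narrow band in the founders, and control and TM points of a genotype lie close together next to these differences.

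Each strain was then set against the mean of the other 7 (limma, adjusted p below 0.01 and at least 2-fold), and 19 members were called for at least 1 strain. That count runs over all strains, and shares of all genes are given below for each strain alone, so it has no share beside it. PWK stood apart downwards, with 11 members lower (4.27% of all genes were) and 0 higher (4.37%), and 27 members at an unadjusted p under 0.05 in either direction. They were a run of the Hoxb cluster from Hoxb5 to Hoxb9 (Hoxb8 3.52-fold, Hoxb6 2.68-fold, Hoxb9 2.38-fold, Hoxb5 2.19-fold and Hoxb7 2.12-fold lower), Hoxc9 (2.20-fold), Hoxc12 (3.94-fold), Hoxc13 (3.69-fold), Hoxd10 (2.65-fold), Hoxd11 (2.50-fold) and Tbx2 (2.07-fold). In 129, 6 were lower (1.51%), namely Hoxd13 (16.8-fold), Hoxa13, Hoxa10, Hoxd10, Hoxd11 and Tbx4 (3.04-fold), all genes with known roles in the limb, and Hoxb5 was higher (2.11-fold, 1 member against 1.92%). A had 5 higher (2.01%), with Hoxd13 at 7.51-fold, Hoxd12 at 4.22-fold, Hoxa13 at 3.52-fold, Tbx4 at 2.49-fold and Hoxd11 at 2.14-fold, and Hoxa3 lower (1 against 2.43%). WSB had 4 higher (2.03%), Hoxd13 (7.42-fold), Hoxd11 (3.52-fold), Hoxd12 (3.35-fold) and Hoxd10 (2.65-fold), and Hoxa2 lower (1 against 2.19%).

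The other strains had few. NOD had 3 higher (1.55%), Hoxc8 (2.17-fold), Hoxc9 and Hoxc13, and 3 lower (1.25%), Hoxd11, Hoxd12 and Hoxd13. B6 had Tbx4 (3.48-fold) and Hoxb9 (2.03-fold) higher (2 against 1.32%) and 0 lower (1.36%), with 15 members at an unadjusted p under 0.05 in either direction. CAST had Hoxd13 (3.59-fold) and Hoxc9 (2.31-fold) higher (2 against 2.94%) and Tbx4 lower (6.05-fold, 1 against 4.67%). NZO had Tbx4 (2.43-fold) and Tbx2 (2.37-fold) higher (2 against 1.39%) and Hoxd12 lower (1 against 0.835%). The mean control level was lowest in PWK for 15 of 40 members and highest in NZO for 10, counts that were not taken over all genes.

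To compare strains over whole clusters, levels per kilobase were summed over the Hox genes described and divided by paralog number. Paralogs 9 to 13 made up 53.95% ± 1.06 (SD, n = 2) of the sum in B6, 51.97% ± 1.86 (n = 2) in WSB and 46.8% ± 1.03 (n = 3) in A. They made up 33.7% ± 1.93 (n = 3) in PWK and 30.5% ± 1.02 (n = 2) in 129, with the other strains between 38.2% and 42.6%. The share of paralogs 2 to 4 ran the other way at its ends, with 23.8% in PWK and 23.7% in 129 but 12.3% in B6 and 12.7% in WSB. The Hoxd cluster alone held 21.2% in WSB and 20.4% in A against 4.22% in 129 and 3.54% in NOD.

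**Figure D3:**
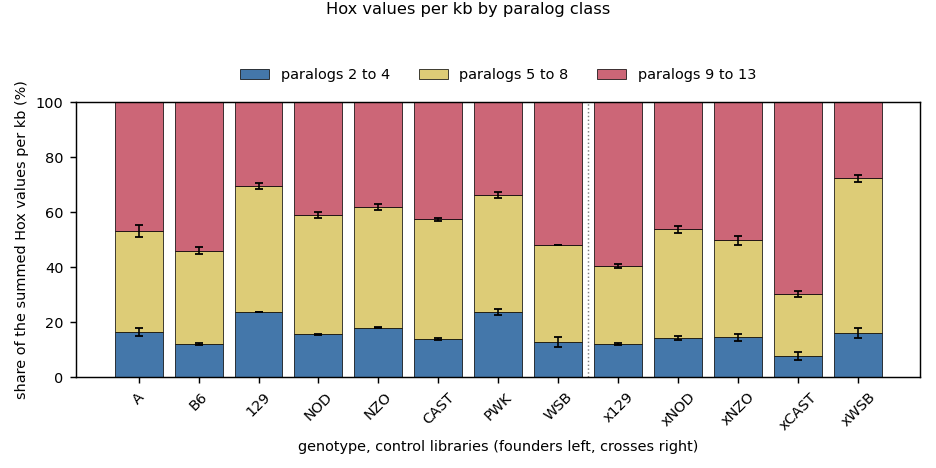
Shares of the summed Hox level per kilobase of exon held by paralogs 2 to 4, 5 to 8 and 9 to 13 in the control libraries of each genotype (stacked bars, percent from 0 to 100, error bars SD over 2 or 3 libraries). The share of paralogs 9 to 13 runs from 30.5% in 129 to 53.95% in B6 among the founders, and from 27.7% in xWSB to 69.6% in xCAST among the crosses.

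The F1 crosses asked the same question in cultures other than those of the founders. Their tables were scaled separately, so levels are compared within each set. In the 14 control libraries, 36 of 40 members differed between the crosses (limma moderated F test, adjusted p below 0.01) against 21.4% of all genes, and in all 36 the extremes lay at least 2-fold apart, against 15.4%. The median range was 2.25 on the log2 scale for the members and 0.52 over all genes. Hoxa4, Hoxa6, Hoxa9 and Hoxc9 were not called. Most extremes were held by xWSB (lowest for 18 members, highest for 10) and xCAST (lowest for 16, highest for 12), while xNOD was highest for 13. Extremes were not counted over all genes, so these counts have no background.

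Hoxd13 was 17.02, 20.2 and 18.4 in x129, 9.66 and 10.6 in xCAST, and 5.66, 5.70 and 5.05 in xNZO. It was 1.08, 0.960 and 1.08 in xNOD and 0.933, 0 and 0.125 in xWSB, without overlap between any crosses, and 65.2-fold apart at the ends (limma adjusted p = 1.91e-05). Hoxd12 was at 0 in all 3 xWSB libraries, at least 13.5-fold under x129 (mean 1.26). Hoxa13 was 1.85 and 1.66 in xCAST, 1.15, 1.47 and 0.996 in x129, and 0, 0.0688 and 0 in xWSB, so these end genes of Hoxa and Hoxd were again low together.

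Hoxc8 was 39.7, 43.7 and 49.4 in xWSB and 1.91 and 1.96 in xCAST, 21.7-fold apart (limma adjusted p = 2.76e-09). The other crosses filled the space between with no overlap, at 21.9, 21.3 and 18.8 in xNOD, 15.9, 14.6 and 12.5 in xNZO, and 8.90, 8.60 and 9.72 in x129. Hoxb9 was 79.1, 79.3 and 71.1 in xNOD, 64.3, 65.4 and 51.1 in xNZO, 54.2, 52.9 and 58.7 in xWSB, 45.3, 48.2 and 45.5 in x129, and 10.1 and 9.65 in xCAST. xCAST lay far below the rest, 7.69-fold under xNOD (limma adjusted p = 1.33e-08), and xNZO overlapped xWSB. Hoxa5 was 18.0, 17.5 and 11.5 in xWSB, 7.92, 10.2 and 8.27 in xNOD, and 3.27 to 5.23 in the other crosses, 4.41-fold (limma adjusted p = 4.08e-06).

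Tbx4 was 7.52 and 7.94 in xCAST, 5.05, 4.84 and 4.08 in x129, 2.55, 3.64 and 1.85 in xNZO, 1.30, 1.00 and 1.14 in xNOD, and 0, 0.275 and 0 in xWSB. These groups did not overlap, and the ends were 50.4-fold apart (limma adjusted p = 4.62e-06). Tbx5 was 3.47 and 3.12 in xCAST and 0.519, 0.275 and 0.502 in xWSB, 6.53-fold (limma adjusted p = 5.10e-05). The hindlimb and the forelimb T-box gene were thus high in the same cross. Tbx15 was 56.5 and 50.6 in xCAST and 23.1, 25.8 and 29.2 in xWSB. Tbx3 was high in xWSB (25.6, 34.1 and 34.2), and Hoxc10 was low there (2.70, 2.61 and 3.01) and highest in xNOD (14.1, 12.6 and 11.7).

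Against the mean of the other 4 crosses, xWSB had 8 members higher (2.92% of all genes) and 17 lower (6.13%). The higher ones were Hoxc8 (5.12-fold), Hoxa5 (3.27-fold), Hoxa3 (3.24-fold), Hoxa7 (3.05-fold), Hoxb7 (2.91-fold), Hoxa2 (2.64-fold), Hoxc5 (2.07-fold) and Tbx3 (2.07-fold), and the Hox genes among them had paralog numbers of 8 or less. Among the lower ones were Tbx4 (21.5-fold), Hoxd13 (20.6-fold), Hoxc11 (7.80-fold), Hoxd11 (5.40-fold), Hoxa13 (5.39-fold) and Tbx5 (4.04-fold). The division by paralog number was not complete. Relative to the mean of the crosses on the log2 scale, xWSB was also low for Hoxd8 (-0.88), but not for Hoxb9 (0.43) or Hoxc9 (0.05). xCAST had 13 lower (3%), led by Hoxc8 (9.16-fold), Hoxb8 (7.76-fold), Hoxb9 (5.88-fold), Hoxb6 (5.44-fold) and Hoxb4 (5.19-fold). Its 7 higher members (3.28%) were Tbx4 (6.26-fold), Hoxa13 (5.73-fold), Hoxc13 (2.71-fold), Hoxc12 (2.67-fold), Tbx5 (2.59-fold), Hoxa11 (2.24-fold) and Tbx18 (2.24-fold).

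In x129, 6 were higher (0.813%), with Hoxd13 (8.98-fold) and Hoxd12 (6.54-fold) at the head, and 0 lower (1.49%), with 21 members at an unadjusted p under 0.05 in either direction. In xNOD, 4 Hoxb genes were higher (1.1%), Hoxb8 (3.03-fold), Hoxb6 (2.38-fold), Hoxb9 (2.17-fold) and Hoxb3 (2.09-fold), and Hoxa13 was lower (1 against 0.43%). xNZO had 0 members called in either direction (1.65% and 0.641%), with 23 at an unadjusted p under 0.05 by limma. Paralogs 9 to 13 held 69.6% ± 0.395 (SD, n = 2) of the summed Hox level per kilobase in xCAST and 27.7% ± 2.37 (n = 3) in xWSB, where paralogs 5 to 8 held 56.1%. The Hoxb cluster held 18.4% in xCAST and 46.1% to 54.2% in the other crosses. Summed chondrocyte markers were also at their ends in these crosses, with a mean of 641 in xCAST and 19.8 in xWSB, and their part in the result was not tested.

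The order of the crosses often differed from the order of their fathers' strains. Hoxd13 averaged 18.3 in WSB and 0.353 in xWSB, but 0.316 in 129 and 18.6 in x129, with B6 at 10.9. Hoxc8 averaged 23.6 in CAST and 1.93 in xCAST, and 9.70 in WSB and 44.3 in xWSB. Founder and cross tables were scaled separately, so these levels are set side by side only for their order within each set. The cross with the highest level had the father with the highest level for 6 of 40 members and the father with the lowest for 11. The cross with the lowest level had the father with the lowest for 8 and with the highest for 15. Such counts were not taken over all genes, so they describe these members without a background. Fathers and crosses are different cultures, and the cross and its litter cannot be told apart.

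Most neighbours in a cluster had like profiles across genotypes. Over the 8 strain means, the median Pearson r was 0.84 for 29 neighbouring pairs (0.04 to 0.99), 0.60 for 95 other pairs of the same cluster and 0.26 for 404 pairs from different clusters. Over the 5 cross means the medians were 0.91, 0.51 and -0.16, with neighbours from -0.008 to 0.998. The neighbours least alike in the crosses were Hoxa7 with Hoxa9 (-0.008), Hoxc9 with Hoxc10 (0.13) and Hoxa9 with Hoxa10 (0.21). Pairs with the same paralog number in different clusters (31) had medians of 0.52 and 0.76. Hoxd13 was most like Hoxa13 (r = 0.97), Hoxd11 (0.86) and Hoxd10 (0.85) over the strains and least like Hoxa2 (-0.74). Over the crosses it was most like Tbx4 (0.95) and Hoxa13 (0.93), and least like Hoxa5 (-0.99). Tbx4 was most like Hoxa11 in both sets (0.65 and 0.98). These correlations describe 8 and 5 points that share libraries, and the transcripts of some neighbours overlap.

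Strain differences among the members were also present in the libraries grown with TM. The basal tests did not use these libraries, but they came from the same MEFs as the controls, so they are not a separate source. In the TM libraries, 31 of 40 members had a strain effect in the founders (limma moderated F test, 37.4% of all genes) and 37 of 40 in the crosses (29.7%). The median log2 range was 1.65 against 0.88 over all genes in the founders and 2.43 against 0.71 in the crosses. The strain with the highest level was the same under both conditions for 20 of 40 members in the founders and 31 of 40 in the crosses. The median Spearman correlation of a member's genotype means between control and TM was 0.86 over 8 strains and 0.9 over 5 crosses. Shared top strains and these correlations were not computed over all genes.

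Other transcription factors of position also differed between genotypes in control cells. Of 32 listed, 25 had a strain effect in the founders (35.8% of all genes), 23 of them at least 2-fold (26.6%), and of 31 in the crosses 16 had one (21.4%), 15 at least 2-fold (15.4%). Pitx1, which specifies the hindlimb upstream of Tbx4, averaged 32.0 in xCAST and 1.90 in xWSB, 16.5-fold (limma adjusted p = 8.61e-07), the same ends as Tbx4. Shox2 (5.06-fold) and Hand2 (9.10-fold), limb genes, had those ends as well, while Lhx9 was highest in x129 and lowest in xWSB (8.23-fold). In the founders Foxd1 was 19.8-fold higher in CAST than in B6 and Lhx9 4.12-fold higher in A than in PWK. Of 13 retinoic acid pathway genes, 9 differed in the founders and 8 in the crosses, where Aldh1a2, which makes the Hox-inducing signal retinoic acid, was 11.9-fold higher in xWSB than in xCAST. Of the Pbx, Meis and Pknox cofactors of Hox proteins, 5 of 9 and 3 of 9 differed. Polycomb and trithorax genes, which hold Hox genes off or on, differed in 6 of 23 and 1 of 23, lower shares than the 35.8% and 21.4% of all genes.

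The second comparison asked how the members responded to TM. Most changes were small next to the differences between strains, and members that fell outnumbered those that rose. By limma within genotypes, 7 of 40 members were called in at least 1 genotype (adjusted p below 0.01 and at least 1.5-fold), against 19.4% of all genes. Of the 7, 1 was higher (9.65% of all genes) and 6 were lower (9.8%). Over all gene and genotype pairs, every TM library lay above every control library in 21.3% and below in 22.4%.

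**Figure D4:**
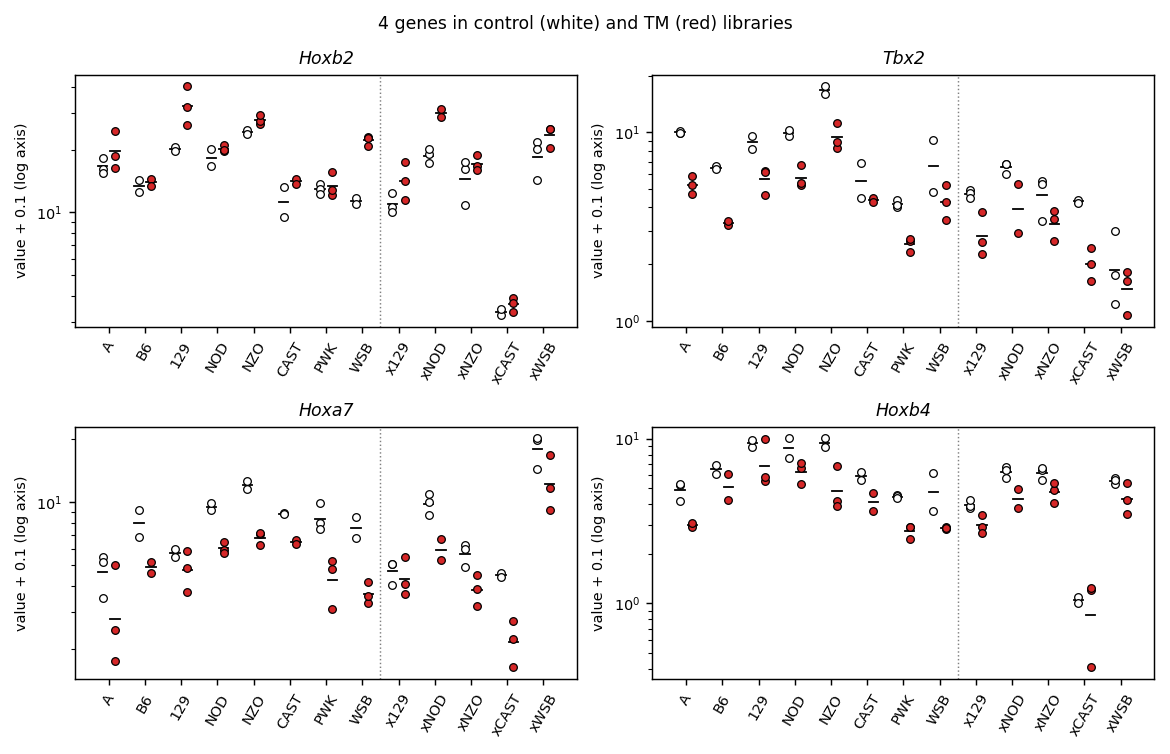
Levels of Hoxb2, Tbx2, Hoxa7 and Hoxb4 in every library of the 13 genotypes, control (white) and TM (red), on a log axis of level + 0.1, with bars at the group means. Hoxb2 has the higher mean with TM in 13 of 13, and Hoxa7 and Hoxb4 have the lower mean in 13 of 13.

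Hoxb2 (chr11:96350525-96354012), which patterns the hindbrain, was the member called higher. In WSB it went from 11.7 and 10.9 to 22.9, 22.7 and 20.7 (1.95-fold, limma adjusted p = 0.00521) and in xNOD from 18.9, 19.9998 and 17.1 to 31.1 and 28.5 (1.59-fold, limma adjusted p = 0.009995). Its mean was higher in 13 of 13 genotypes, with separate ranges in 5, but the pooled change was small, at 0.33 in the founders (limma adjusted p = 2.29e-04) and 0.35 in the crosses (limma adjusted p = 0.00117). An antisense transcript, Hoxb3os, covers 27.3% of its exons.

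Genes called higher made up 0.315% of those tested in 129, 0.346% in A, 5.04% in B6, 2.54% in CAST, 1.45% in NOD, 0.32% in NZO, 6.36% in PWK and 2.85% in WSB. In the crosses they made up 4.88% in x129, 2.52% in xCAST, 3.69% in xNOD, 1.44% in xNZO and 0.185% in xWSB. In the 11 genotypes where limma called 0 members higher, 3 to 17 members had an unadjusted p under 0.05 in either direction.

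The lower calls came from B6 and PWK. In B6, 3 members fell (3.22% of all genes), namely Tbx2 (from 6.53 and 6.28 to 3.11 and 3.30, limma adjusted p = 0.00102), Hoxc5 (limma adjusted p = 0.00174) and Hoxa7 (from 6.72 and 9.12 to 4.53 and 5.08, limma adjusted p = 0.00947). In PWK, 4 Hoxa genes fell (4.3% of all genes), namely Hoxa3 (2.20-fold, limma adjusted p = 1.23e-04), Hoxa5 (2.10-fold, limma adjusted p = 6.66e-04), Hoxa9 (2.34-fold, limma adjusted p = 0.00238) and Hoxa7 (1.95-fold, limma adjusted p = 0.00296). The antisense gene Hoxaas3, listed too, covers 20.4% of the exons of Hoxa7. In the other 11 genotypes limma called 0 members lower, with 3 to 16 at an unadjusted p under 0.05 in either direction. Genes called lower there made up 0.00787% in 129, 0.00786% in A, 0.478% in CAST, 0.165% in NOD, 0.0078% in NZO, 4.2% in WSB, 1.36% in x129, 1.2% in xCAST, 4.6% in xNOD, 0.152% in xNZO and 0.0161% in xWSB.

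Pooled over the founders, 0 members were higher (6.17% of all genes) and 7 were lower (5.74%) by at least 1.5-fold in limma, with 30 at an unadjusted p under 0.05 in either direction and 7 called by edgeR. Without a limit on size, 3 were higher (21.3%) and 18 lower (23.4%). The median change of the 40 was -0.33 and of all genes -0.04, with 31 of 40 members and 54.6% of all genes below 0. In the crosses 0 were higher (4.9%) and 3 lower (5.11%) in limma, with 23 at an unadjusted p under 0.05 and 2 called by edgeR, or 2 higher (16.7%) and 12 lower (18%) at any size. There the median was -0.20 against -0.04, with 27 of 40 below 0. The count of 3 became 5 without x129 control replicate 1, x129 control replicate 2, xNZO control replicate 3 or xWSB TM replicate 1, and 6 without x129 TM replicate 2. The sets have separate control libraries, and 27 members were below 0 in both, 9 above 0 in both, 11 lower in both at an adjusted p below 0.01 and 1, Hoxb2, higher in both. Counts over both sets were not taken for all genes, so these describe the members without a background. The other member higher at any size in the crosses was Hoxa2, which patterns the hindbrain and pharyngeal arches and was named after its values were seen. Its change was 0.41 in the crosses (limma adjusted p = 0.00959) and 0.14 in the founders (limma adjusted p = 0.303), and the difference between the sets was not tested.

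Hoxa6, of the trunk, fell most, from a founder median of 1.49 (0.861 to 3.36) to 0.841 (0.209 to 2.49). The ranges overlapped across strains, and the pooled change was -0.98 (SE 0.18, limma adjusted p = 1.41e-05), with the mean lower in 13 of 13 genotypes. In the crosses it was -1.01 (SE 0.24, limma adjusted p = 0.00114). With a pseudocount of 1 in place of 0.1 the change was -0.52 in the founders and -0.48 in the crosses, both under 1.5-fold. Tbx2 fell from a median of 8.58 (3.90 to 17.5) to 4.87 (2.22 to 11.1). In A it went from 9.88, 10.0 and 9.81 to 4.62, 5.75 and 5.18, and in NZO from 17.5 and 15.8 to 8.20, 8.78 and 11.1. Its TM libraries lay below its control libraries in 10 of 13 genotypes, and the pooled change was -0.74 (SE 0.07, limma adjusted p = 1.06e-10), and -0.66 in the crosses (SE 0.14, limma adjusted p = 2.41e-04).

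Hoxa7 changed by -0.72 (SE 0.10, limma adjusted p = 6.56e-08) in the founders and Hoxa5, whose promoter is shown above, by -0.64 (SE 0.09, limma adjusted p = 1.12e-07), each with separate ranges in 9 of 13 genotypes. Hoxb4, an axial gene, changed by -0.63 (SE 0.08, limma adjusted p = 5.16e-08), with separate ranges in 10 of 13, and Hoxb8 by -0.60 (SE 0.15, limma adjusted p = 6.99e-04), with separate ranges in 4. Hoxb8 was close to the limit of 1.5-fold and lay under it, at -0.58 to -0.52, in 11 of 40 fits that left out 1 library (129 TM replicate 2, A control replicate 1 or 2, A TM replicate 1 or 3, CAST control replicate 3, NZO TM replicate 3, PWK control replicate 1, WSB control replicate 2, and WSB TM replicate 1 or 2). In the crosses Hoxa7 changed by -0.58 (limma adjusted p = 1.04e-04), Hoxb4 by -0.40 (limma adjusted p = 0.00743) and Hoxa5 by -0.30 (limma adjusted p = 0.00680). Those changes were under 1.5-fold. The change of Hoxb8 in the crosses was -0.16 (limma adjusted p = 0.306), so its fall was called in the founders only. The difference between the sets was not tested for Hoxb8. Hoxc12, a posterior gene, reached at most 1.51 in any library, and changed by -0.70 (SE 0.22, limma adjusted p = 0.00700) in the founders and -0.65 (SE 0.18, limma adjusted p = 0.00468) in the crosses. Its call was lost, at -0.69 to -0.63, in 12 of 40 fits of the founders that left out 1 library (129 control replicate 3, A control replicate 2 or 3, A TM replicate 2, B6 control replicate 2, B6 TM replicate 1, CAST TM replicate 2, NZO control replicate 2, PWK TM replicate 1, WSB control replicate 2 or 3, and WSB TM replicate 2). In the crosses it was lost without xNOD TM replicate 1 (-0.55) and without xWSB control replicate 3 (-0.58). Tbx5 changed by -0.58 (limma adjusted p = 0.00112), under the limit of 1.5-fold.

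Hoxb9 and Tbx15, the most abundant members, rose slightly in the founders, by 0.25 (limma adjusted p = 0.00228) and 0.15 (limma adjusted p = 0.00645). In the crosses neither passed 0.01, with Hoxb9 at 0.17 (limma adjusted p = 0.0432) and Tbx15 at 0.02 (limma adjusted p = 0.744). Others had changes near 0 in the founders. Hoxc8 was at 0.00 (95% interval -0.14 to 0.14, limma adjusted p = 0.995) and Tbx3 at 0.01 (limma adjusted p = 0.919). Hoxd13, the member with the widest strain range, was at 0.16 with a wide interval of -0.18 to 0.50 (limma adjusted p = 0.430).

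By paralog number the mean founder change was 0.23 for number 2, -0.46 for 3, -0.47 for 4, -0.48 for 5, -0.60 for 6 and -0.52 for 7. It was -0.20 for 8, -0.13 for 9, -0.21 for 10, -0.28 for 11, -0.54 for 12 and -0.21 for 13. The crosses gave the same run of signs, with 0.38 for number 2 and values from -0.55 to -0.36 for numbers 3 to 7, then -0.01 for 8 and -0.04 for 9. These are means of 2 to 4 genes that differed among themselves. Number 6 ran from -0.98 to -0.38 in the founders and from -1.01 to -0.15 in the crosses. Number 9 held both signs, from -0.46 to 0.25 and from -0.56 to 0.17. A trend along the paralog numbers was not tested. By cluster, 5 of 10 Hoxa, 6 of 8 Hoxb, 3 of 9 Hoxc and 2 of 6 Hoxd genes were lower in the founders at an adjusted p below 0.01 (23.4% of all genes), and 5, 2, 4 and 0 in the crosses (18%).

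**Figure D5:**
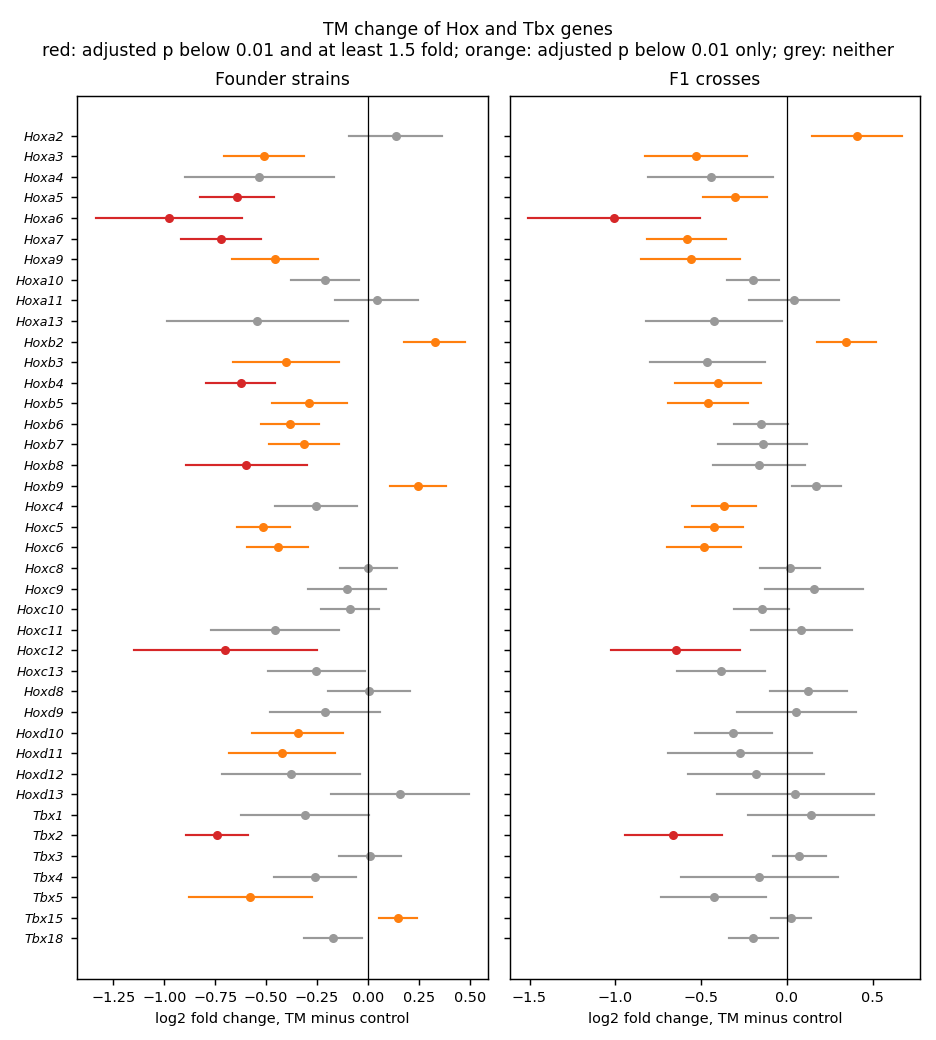
Pooled change with TM of the 40 members in the founders and in the F1 crosses, on the log2(level + 0.1) scale with 95% intervals (red, adjusted p below 0.01 and at least 1.5-fold; orange, adjusted p below 0.01 only; grey, neither). Most members lie between 0 and -1, with Hoxa6 lowest at -0.98 and -1.01.

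The strain dependence of the response was tested as an interaction. No member was called in either set, where 0.174% of all genes were called in the founders and 0.0547% in the crosses. By limma, 3 members in the founders and 2 in the crosses had an unadjusted interaction p under 0.05, and edgeR also called 0 in both. The lowest adjusted p was 0.211 for Hoxa2 in the founders and 0.782 for Tbx4 in the crosses. Intervals within a genotype are wide with 2 or 3 libraries, so this does not show equal responses.

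Among genes that act with the members, few passed with TM (adjusted p below 0.01 and at least 1.5-fold), where 6.17% of all genes rose and 5.74% fell in the founders and 4.9% rose and 5.11% fell in the crosses. Of the Hox cofactors only Pbx2 was lower in the founders (1 of 9, change -0.63, limma adjusted p = 1.05e-13) and none of 9 in the crosses. Of 23 Polycomb and trithorax genes, 1 rose and 3 fell in both sets. Kdm6a, an H3K27 demethylase, was at 1.00 and 0.70, while Cbx2, a reader of that mark, was at -1.01 and -0.83, Jarid2 at -0.83 and -0.74, and Men1 at -0.68 and -0.63. Of 13 retinoic acid genes only Rxra, a receptor partner, fell in each set (-0.83 in both). Pitx1 fell in both (-0.65, limma adjusted p = 2.67e-08, and -0.61) among the positional factors, as Tbx2 did, and Irx3 rose in the crosses (0.91). Myeloid markers were lower with TM in the founders (6 of 14), from a summed median of 33.4 to 18.3, and their part in the members' changes was not tested.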

How the data were processed

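Single-end RNA sequencing reads were aligned by the authors with TopHat 1.4.1 to a genome specific to each strain (GRCm38/mm10 per the labels), counted per gene and TMM-scaled with edgeR, so levels of a gene can depend on how well each strain's genome represents it. The deposited signal per gene and library is called FPKM, but low values step by whole reads relative to the scaled library size, so no length was divided out. Whole reads were recovered, with 100% of values within 0.05 of a whole number. PWK TM replicate 2 and WSB TM replicate 1 met this limit too, but a separate check marked them as not recovered, and their reads were not used. A median 9.39% of F1 reads fell on no gene. Groups came from the labels. Tests used limma 3.58.1 in R 4.3.3 on log2(value + 0.1), over all genes at 0.5 or more in 2 or more libraries, with Benjamini-Hochberg adjustment, a threshold of 0.01, and at least 1.5-fold for TM or 2-fold for a strain set apart. The fits were tested on simulated data. edgeR 4.0.16 on the recovered reads was an alternative, beside other pseudocounts, filters, a replicate block and leaving out each library.

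Named members were those called with TM in at least 2 genotypes or a pooled fit, the 15 with the smallest basal adjusted p in the founders, Hoxa13, Hoxc10, Hoxd13, Tbx3, Tbx4, Tbx5 and Tbx15, members set apart, and up to 4 genes of each list. Hoxa9, called in PWK alone, and members listed as not called were named outside this rule, after their values were seen. One listed member is not reported here and enters no count. Members and lists were chosen with earlier results of these data known. Of 13197 founder and 12803 F1 identifiers, 13023 and 12639 matched the annotation. Promoter windows were taken from RefSeq (GRCm38.p6), the same assembly as the files. Lanes were not given in the labels.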

Additional observations from a re-analysis of the deposited data

How the results depend on the processing

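No direction reversed in 803 refitted values of 25 member results, and 785 stayed on the same side of an adjusted p of 0.01; the other 18 were all Hoxc12, whose pooled change was -0.54 and -0.66 with a replicate block, -0.57 and -0.59 by edgeR, and -0.20 in the crosses with a pseudocount of 1. With the limit of 1.5-fold as well, 38 of 429 refits of the pooled TM calls lost the call, Hoxb8 by edgeR (-0.54) among them. With a pseudocount of 1 these were Hoxa5 (-0.57), Hoxb4 (-0.52), Hoxa6 (-0.52), Hoxb8 (-0.38) and Hoxc12 (-0.21) in the founders and Tbx2 (-0.52), Hoxa6 (-0.48) and Hoxc12 in the crosses, and the basal range was 2.69 for Tbx4, 2.02 for Hoxd11 and 1.84 for Hoxd10. With that pseudocount the members called fell from 7 to 2 (pooled founders), from 3 to 0 (pooled F1) and from 19 to 11 (set apart in a founder strain). Of genes with a mean of at least 2, pooled founders gave 4 and pooled F1 gave 1. Within genotypes, 16 members were called at an FDR of 0.05 and 13 in 1 fit over each set, against 7. Shares of all genes under these other settings are not given here, so the larger counts are not read as a stronger response. Leaving out each library gave 5 to 10 members within genotypes, 5 to 8 in pooled founders, and 3 to 6 in pooled F1, the 6 without x129 TM replicate 2. It gave 26 to 33 with a founder strain effect, 17 to 22 set apart, 33 to 37 with a cross effect, 30 to 34 with a strain effect under TM, and 0 to 0 for both interactions. Replicate numbers did not pair the samples (29 pairs, median r 0.0125, -0.568 to 0.366, 9 over 0.1, 10 closest to their own number). A replicate block could be fitted in 11 of 13 genotypes and gave 6 members there against 5, and 6, 2, 31, 19, 36, 35, 0 and 0 in the order above. edgeR gave 7, 7, 2, 31, 18, 36, 28, 0 and 0. Low levels limit Hoxa13, Hoxd12 and Hoxc12 most, where a library often held under 10 reads.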
